A study of Mus musculus with 2 samples.

Results

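The regions described here are the MeDIP-seq peaks of the last 2 Mb of each mouse autosome, next to the telomere that lies farthest from the centromere. A peak belonged to this distal stretch when its midpoint lay within 2 Mb of the largest peak end on its chromosome, taken over both peak lists. This gave 4436 peaks of the 342211 in the series, 2166 of 166438 with regular chow and 2270 of 175773 with high-fat diet. MeDIP-seq sequences genomic fragments that an antibody against 5-methylcytosine has captured, and a peak is a stretch where such fragments accumulate. The tissue was epididymal white adipose tissue, a visceral fat pad, of male C57BL/6J mice, an inbred strain. Mice entered the study at 4 weeks of age and were kept for 5 months on regular chow (STD) or on a high-fat diet (HFD) in which fat supplied 60% of the calories. The labels name no allele or transgene and do not give the number of mice behind a library. The tissue could not be checked against marker genes, since the lists hold positions and no genes.

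Each diet is 1 library, so differences could not be set against replicates and p-values are left out. Confidence intervals are exact 95% binomial or Poisson intervals unless another method is named. They cover counting error only and treat neighbouring peaks as independent. Sequencing depth is unknown because the lists give no read counts. Positions are in mm9 and count from 1.

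Mouse autosomes are acrocentric: the centromere sits close to one end, and the opposite, distal end carries the long array of TTAGGG repeats that makes up the telomere. The DNA just inside a telomere is called subtelomeric. The lists do not show how far the last peak lies from the telomere, so the distal stretch is subtelomeric only by its place at the end of the peaks. Mouse subtelomeric repeats are known to be heavily methylated by the DNA methyltransferases, and loss of this methylation has been linked to altered telomere length and recombination. MeDIP enriches fragments with several methylated CpG sites, so the number of peaks in a stretch depends on how many CpG sites it holds and how well reads map to it, as well as on methylation. Peak density is therefore no measure of methylation level, and DNA between peaks may be methylated too.

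Peaks were sparse in the last 2 Mb and dense just before it. The distal stretch held 57 STD peaks per Mb (54.6 to 59.5) and 59.7 HFD peaks per Mb (57.3 to 62.2). In the 4 Mb before it the density was 105 STD peaks per Mb (103 to 107) and 111 HFD peaks per Mb (108 to 113). The distal density was thus 0.544 times that of the 4 Mb before it in the STD library (0.518 to 0.570) and 0.539 times in the HFD library (0.514 to 0.565). The distal stretch was also less dense than the remaining autosomal span on the centromere side of those 6 Mb, which held 67.5 STD and 71.3 HFD peaks per Mb. The ratio to that span was 0.845 (0.809 to 0.881) with STD and 0.838 (0.804 to 0.873) with HFD. In covered bases, peaks took up 2.09% of the distal stretch with STD and 2.14% with HFD, against 3.96% and 4.06% of the 4 Mb before it.

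The fall in density showed no break at the 2 Mb limit and went on inside it for more than 1 Mb. In steps of 250 kb over the 4 Mb before the distal stretch, STD density stayed between 91.6 and 115 peaks per Mb. HFD density stayed between 97.1 and 121. In both libraries the lowest of these steps was the one next to the limit, and the highest lay 3.75 to 4 Mb from the last peak. From 2 to 1.75 Mb before the last peak it was 89.3 STD and 91.2 HFD peaks per Mb, just inside the limit, and 91.6 and 97.1 in the 250 kb just outside it. The lowest step was 0.5 to 0.75 Mb from the last peak, with densities of 41.1 (STD) and 42.1 (HFD). In the outermost 250 kb the values were 47.6 and 52.6. The last 1 Mb held 858 STD and 903 HFD peaks, and the 1 Mb before it 1308 and 1367, a ratio of 0.656 (0.601 to 0.715) with STD and 0.661 (0.607 to 0.719) with HFD. On 14 of 19 autosomes the last 1 Mb held fewer peaks in both libraries. The exceptions in both were chromosomes 3, 6, 13, 17 and 18, of which chromosome 13 had 50 STD and 52 HFD peaks in the last 1 Mb after 32 and 31 in the 1 Mb before.

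**Figure D1:**
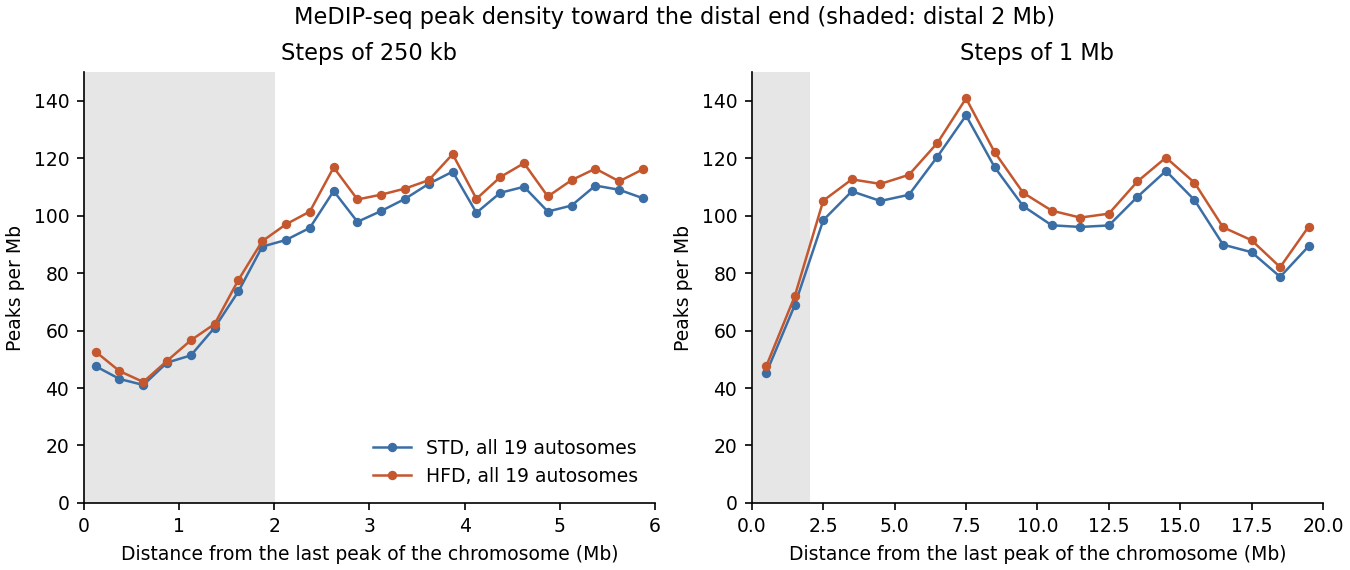
Peaks per Mb of the STD and HFD libraries, pooled over 19 autosomes, against the distance in Mb from the last peak of the chromosome, in steps of 250 kb over 6 Mb (left) and of 1 Mb over 20 Mb (right). Both lines drop inside the shaded distal 2 Mb, to 41.1 and 42.1 peaks per Mb at their lowest, and the highest step of 1 Mb lies 7 to 8 Mb from the end, at 135 and 141.

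Farther from the end, the density over steps of 1 Mb was highest 7 to 8 Mb from the last peak, with 135 STD and 141 HFD peaks per Mb. It then ranged down to 78.7 and 82.1 at 18 to 19 Mb. The last 1 Mb, at 45.2 and 47.5 peaks per Mb, was the lowest of the 20 steps of 1 Mb in both libraries. The limit of 2 Mb separated peaks that differ little in position. The nearest STD peak inside it was 291 bp wide and had no HFD partner (chromosome 4, from 153606921 to 153607211). The nearest STD peak outside it had a width of 379 bp and a partner (chromosome 5, from 150526775 to 150527153). The nearest HFD peaks were 274 bp wide (chromosome 7, inside, from 150514447 to 150514720, no partner) and 273 bp wide (chromosome 5, outside, from 150526794 to 150527066, with a partner).

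Chromosomes differed widely in their distal stretch. The highest numbers were on chromosome 4, with 271 STD and 291 HFD peaks, chromosome 11, with 251 and 249, and chromosome 5, with 206 and 212. By both lists together, the lowest were on chromosome 3, with 29 and 33, chromosome 14, with 30 and 37, and chromosome 17, with 34 and 37. The highest number was 9.34 times the lowest with STD and 8.82 times with HFD, against 6.99 and 6.77 times for the 4 Mb before. Chromosomes 4, 11, 5 and 7, the 4 fullest by both lists together, carried 41.4% of the distal STD peaks and 41.1% of the distal HFD peaks. Across the 19 chromosomes the distal numbers of the libraries went together, with r = 0.996, a description of 1 pair of libraries on the same chromosomes. Distal and preceding density were less alike, with r = 0.529 (STD) and 0.543 (HFD) over 19 chromosomes.

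Between these extremes, chromosome 7 held 169 STD and 181 HFD distal peaks, chromosome 2 held 170 and 175, and chromosome 15 held 159 in each list. Chromosome 9 had 129 and 148, chromosome 16 had 122 and 126, and chromosome 6 had 100 and 111. From 82 to 92 peaks per list were found on chromosomes 19, 10, 8 and 13, which thus differed by little. Chromosome 12 had 61 and 73, chromosome 1 had 59 and 55, and chromosome 18 had 38 and 34. In the HFD list alone, chromosome 18 was thus below chromosomes 14 and 17, which had 37 each.

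The distal stretch was less dense than the 4 Mb before it on 18 of 19 autosomes in both libraries. The interval of the ratio lay below 1 on 13 autosomes with STD and on 14 with HFD. The lowest ratio was on chromosome 14, from 120 to 15 STD peaks per Mb, a ratio of 0.125 (0.0834 to 0.181). In the HFD library chromosome 14 went from 129 to 18.5 peaks per Mb, a ratio of 0.143 (0.0996 to 0.1999). Chromosome 1 had ratios of 0.274 and 0.245, chromosome 19 of 0.278 and 0.281, and chromosome 8 of 0.288 and 0.293. The ratio was below 0.5 on 9 autosomes with STD and 10 with HFD, the additional one being chromosome 15. On chromosomes 7, 12 and 17 the intervals included 1 in both libraries. Their ratios were 0.983, 0.859 and 0.747 with STD and 0.978, 0.948 and 0.755 with HFD. The interval also included 1 on chromosomes 11 and 18 with STD alone and on chromosome 4 with HFD alone. The 4 Mb before was itself sparsest on chromosomes 17, 18, 12 and 3, at 22.8, 27.5, 35.5 and 42.3 STD peaks per Mb. Of these, chromosome 3 still fell to 14.5 STD peaks per Mb, a ratio of 0.343 (0.223 to 0.511).

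**Figure D2:**
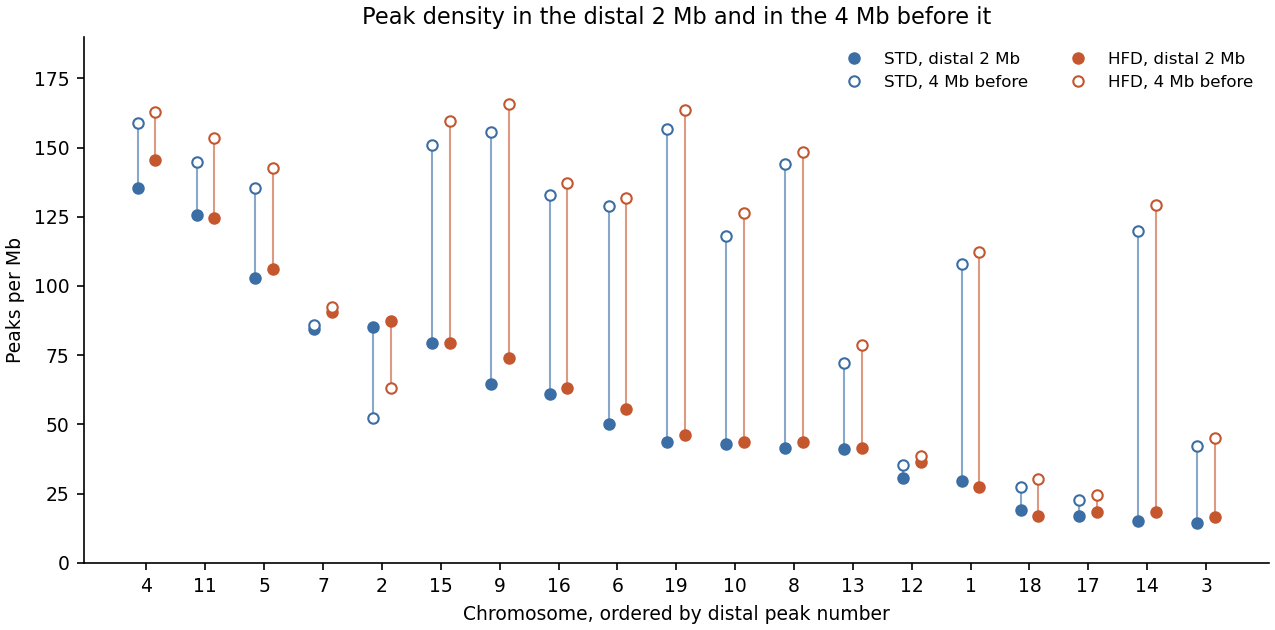
Peaks per Mb by chromosome in the distal 2 Mb (filled) and in the 4 Mb before it (open) for the STD and HFD libraries, joined by a line within a library. The filled points lie below the open ones on every autosome except chromosome 2, and on chromosome 14, which has the lowest ratios, they go from 120 to 15 (STD) and from 129 to 18.5 (HFD).

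Chromosome 2 was the exception, with a distal density 1.63 times (1.32 to 2.001) that of the 4 Mb before in the STD library and 1.38 times (1.13 to 1.68) in the HFD library. The 4 Mb before were uneven there: from 4 to 6 Mb before the last peak lay 3 STD and 4 HFD peaks, and from 2 to 4 Mb 206 and 249. Against the 2 to 4 Mb part, the distal stretch of chromosome 2 had ratios of 0.825 (0.670 to 1.02) and 0.703 (0.576 to 0.856). The direction of the exception thus rested on the nearly peakless 2 Mb. Whether reads can be mapped there was not tested.

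With the 2 to 4 Mb part as the reference for every autosome, the distal stretch was less dense on 16 of 19 in each library, and the interval of the ratio lay below 1 on 13 in each. Chromosome 7 was then above 1 in both, at 1.10 (0.882 to 1.38) with STD and 1.07 (0.864 to 1.33) with HFD. Chromosome 18 was above 1 too, at 1.15 (0.703 to 1.89) and 1.03 (0.619 to 1.72). Chromosome 13 stood at 1.06 (0.771 to 1.47) and 0.943 (0.690 to 1.29), and chromosome 17 at 0.872 (0.534 to 1.42) and, in the HFD list, equal numbers of 37. None of the intervals of these 4 chromosomes left out 1. Chromosome 12 moved the other way, to 0.560 (0.402 to 0.773) and 0.562 (0.416 to 0.754), since 109 STD and 130 HFD peaks lay from 2 to 4 Mb and 33 and 24 from 4 to 6 Mb. On chromosome 3 the ratios were 0.592 (0.361 to 0.956) and 0.660 (0.412 to 1.04).

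Each chromosome was also divided into consecutive 2 Mb stretches from its distal end, counting both lists together. The distal stretch was below the median stretch of its own chromosome on 12 of 19 autosomes, and the median over chromosomes of distal number over that median was 0.651. It was the emptiest of 46 stretches on chromosome 17 and on chromosome 3 shared the lowest place of 78. On chromosome 18 it ranked 3 from the lowest of 43. At the other extreme, on chromosome 4 it held 2.29 times the median and ranked 9 from the top of 76. On chromosome 11 the factor was 1.44 and the rank 12 of 59. On none of the 19 autosomes was the distal stretch among the fullest 10% of the stretches.

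Gene names near the distal ends came from RefSeq's gene order on GRCm38, a later build than mm9, so they name neighbours only, and no peak was placed at a gene. Among the last protein-coding genes of chromosome 4, the fullest, that order lists Samd11, Noc2l, Klhl17, Plekhn1 and Perm1, with Vmn2r129 outermost. Perm1 is a muscle regulator of oxidative metabolism. On chromosome 11 the order lists Tbcd, a tubulin-folding cofactor, B3gntl1, and Metrnl, which encodes a protein secreted by muscle and fat. Farther out on chromosome 11 it lists Ptchd3 and, last, Gm9631. At the sparse end of chromosome 14 it lists Nalcn, a sodium leak channel, Itgbl1, and Fgf14, an intracellular factor that modulates sodium channels. For chromosome 3 it lists Lrrc7, Depdc1a, Rpe65, the retinoid isomerase of the visual cycle, and Wls, which is needed for the secretion of Wnt proteins.

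Within the distal stretch, peaks were gathered in some windows and missing from others. Among 380 windows of 100 kb, the median was 4 STD and 5 HFD peaks, against 11 and 12 in the 760 windows of the 4 Mb before. The fullest was the outermost 100 kb of chromosome 4, from 155506522 to 155606521, with 27 STD and 30 HFD peaks, of which 2 and 3 had no partner. The next was on chromosome 11 from 119937113 to 120037112, with 25 STD and 18 HFD peaks. The third place was shared by chromosome 5 from 151127538 to 151227537, with 20 and 19, and chromosome 11 from 119837113 to 119937112, with 21 and 18. Of the 380 windows, 29 had no STD peak, 28 no HFD peak and 19 neither. In the 4 Mb before, 30 of 760 windows had neither, so empty windows made up 5% of the distal stretch and 3.95% of the 4 Mb before. The numbers of the 2 libraries per distal window were correlated at r = 0.938 over 380 windows, which share position and base composition.

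**Figure D3:**
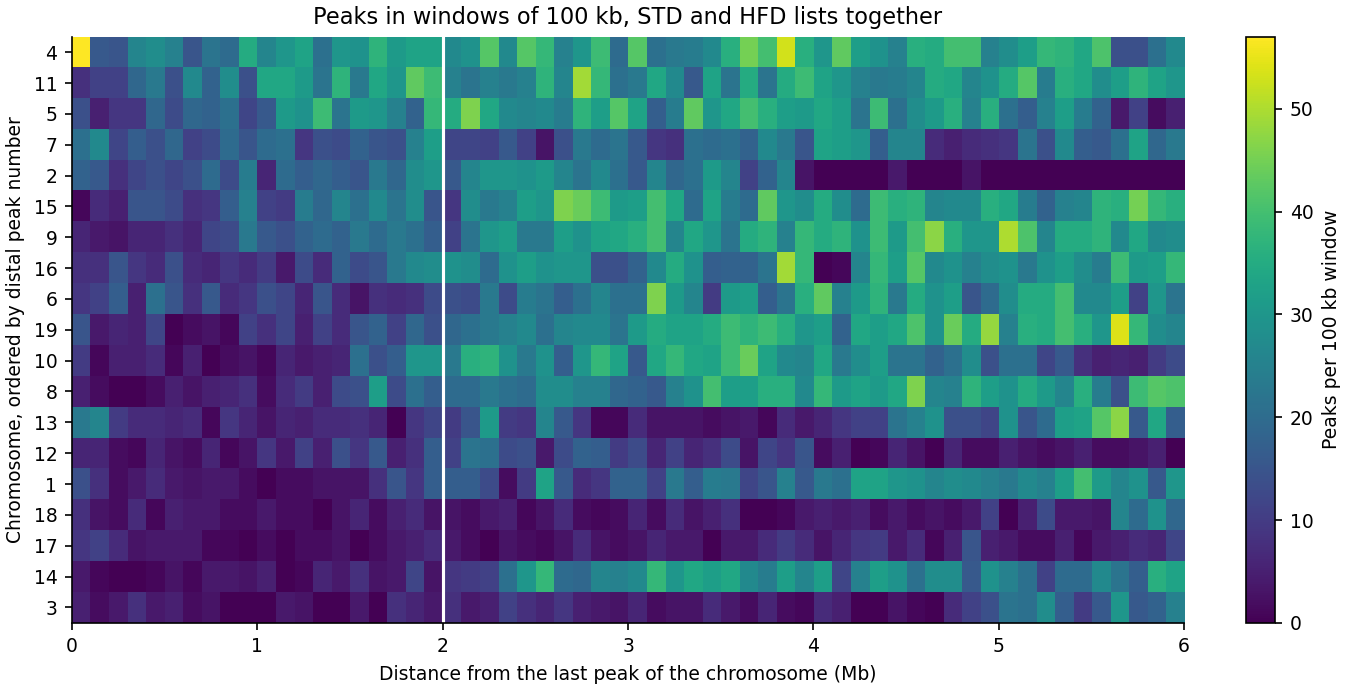
Number of peaks, STD and HFD lists together, in windows of 100 kb over the last 6 Mb of each autosome, by distance in Mb from the last peak, with the 2 Mb limit as a white line and chromosomes ordered by distal number. The outermost window of chromosome 4 is the fullest of the distal ones with 57 peaks, and a dark band on chromosome 2 marks the nearly peakless stretch from 4 to 6 Mb.

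The longest distal stretch without a peak of either library was on chromosome 3 from 158430490 to 158834574, over 404 kb. The next were on chromosome 8 from 131267846 to 131550317, over 282 kb, and on chromosome 3 from 158037118 to 158290853, over 254 kb. In all, 35 such stretches exceeded 100 kb. They lay on 12 chromosomes and together made up 5.49 Mb, counting stretches that lie wholly within the distal 2 Mb.

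Spacing was described as the bases between neighbouring peaks of the same list. The median distal spacing was 7.86 kb with STD (7.38 to 8.23) and 7.71 kb with HFD (7.28 to 8.14), with intervals from binomial order statistics. In the 4 Mb before it was 5.415 kb and 5.196 kb, and over the remaining autosomal span 6.96 kb and 6.72 kb. The median spacing was longer distally than in the 4 Mb before on 19 of 19 autosomes in both libraries, including chromosome 2. The mean spacing was 17.0 kb (STD) and 16.4 kb (HFD), so the median was 0.461 and 0.471 of the mean, against 0.604 and 0.614 in the 4 Mb before. Long gaps contributed to this: 2.14% of STD and 2.09% of HFD spacings exceeded 100 kb, against 0.579% and 0.583% in the 4 Mb before. Spacings under 1 kb made up 9.27% and 8.93%, against 12.3% and 12.7%. By chromosome, the median spacing ran from 5.07 kb (STD) and 5.02 kb (HFD) on chromosome 4 to 42.8 kb with STD on chromosome 17 and 42.3 kb with HFD on chromosome 18.

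Distal peaks were slightly narrower than those just before them, and about as wide as elsewhere. The median width was 329 bp with STD (324 to 335) and 321 bp with HFD (316 to 325), with the same kind of interval as for spacing. In the 4 Mb before it was 341 bp (338 to 343) and 328 bp (326 to 331), and over the remaining span 332 bp and 321 bp. The narrowest peak allowed in each list differed, at 263 bp and 255 bp, so widths were also read above that minimum. On that scale the distal median was 66 bp in both libraries, against 78 bp (STD) and 73 bp (HFD) in the 4 Mb before. On 16 of 19 autosomes the distal median was below that of the 4 Mb before in each library. It ranged over chromosomes from 291.5 bp (chromosome 18) to 345 bp (chromosome 4) with STD and from 281 bp (chromosome 14) to 340 bp (chromosome 13) with HFD.

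Peaks of at least 800 bp numbered 23 with STD and 27 with HFD in the distal stretch. These are 1.06% and 1.19% of the distal peaks, and 1.15% and 0.957% of all autosomal peaks were that wide. All 23 STD peaks and 26 of the 27 HFD peaks overlapped a peak of the other list. Wide peaks elsewhere mostly had a partner too. Over the remaining autosomal span, peaks over 200 bp above the minimum width had a partner in 93.7% (STD) and 92.7% (HFD) of cases. That class also holds peaks under 800 bp. The widest distal STD peak lay 55.6 kb from the last peak end of chromosome 4, from 155550208 to 155551645, and was 1438 bp wide. It overlapped 3 HFD peaks, and the one with the largest overlap was 516 bp wide. The next were on chromosome 11 from 120489286 to 120490487 (1202 bp), on chromosome 4 from 154851946 to 154853018 (1073 bp), on chromosome 11 from 121755077 to 121756130 (1054 bp) and on chromosome 2 from 181651775 to 181652818 (1044 bp). All 5 lay on chromosomes 2, 4 and 11 and had a partner.

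The widest distal HFD peak was on chromosome 4 from 153714850 to 153716157, with 1308 bp and 2 STD partners. Next came chromosome 10 from 127981286 to 127982419 (1134 bp), chromosome 9 from 122075533 to 122076664 (1132 bp), chromosome 4 from 154530608 to 154531645 (1038 bp) and chromosome 11 from 120223119 to 120224136 (1018 bp). The chromosome 4 peak of 1038 bp matched an STD peak of 1043 bp, and the chromosome 9 peak one of 1015 bp. The chromosome 10 peak had 2 STD partners, the one with the larger overlap being 661 bp wide, and the partner of the chromosome 11 peak was 697 bp wide. Neither list of 5 shares a region with the other.

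The diets were compared by partners, a partner being a peak of the other list that overlaps by at least 1 bp. Of the distal STD peaks, 1589 had an HFD partner (73.4%, 71.4 to 75.2) and 577 had none. Of the distal HFD peaks, 1589 had an STD partner (70.0%, 68.1 to 71.9) and 681 had none. The shares without a partner, 26.6% and 30.0%, lay near those of all autosomal peaks, 26.4% of STD and 30.2% of HFD peaks. Overlapping peaks merged into 2834 loci, of which 1576 (55.6%) held peaks of both libraries, 681 (24.03%) an HFD peak alone and 577 (20.4%) an STD peak alone. These shares lay near the 55.5%, 24.3% and 20.1% of the remaining autosomal span. In the 4 Mb before they were 58.7%, 22.8% and 18.4%.

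Compared with the 4 Mb before, the distal share with a partner was lower by a few percentage points. The difference was -2.86 percentage points with STD (-4.98 to -0.811, Newcombe interval) and -2.17 with HFD (-4.31 to -0.0839). It was lower on 14 of 19 autosomes with STD and on 10 with HFD. Against the remaining autosomal span the difference was -0.122 with STD (-2.04 to 1.71) and 0.310 with HFD (-1.62 to 2.17), so both intervals included 0. When the shares of the 4 Mb before were taken at the widths of the distal peaks, the differences were -0.929 and -0.738 percentage points. Stratified by chromosome they were -3.37 (STD) and -2.35 (HFD). With peaks up to 20 bp above the narrowest of their own list left out, they were -3.15 (STD) and -3.86 (HFD). Taking a distal stretch of 1 Mb widened the interval across 0 in both libraries (-5.16 to 1.04 and -5.21 to 1.09), and so did 3 Mb with STD (-3.19 to 0.0448).

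The share of distal peaks with a partner rose with width. Of those up to 20 bp above the narrowest, 48.4% of 512 STD peaks and 44.8% of 531 HFD peaks had a partner. Between 51 and 100 bp above it the shares were 78.8% and 75.1%, and over 200 bp above it 93.5% of 307 and 92.7% of 331. The 4 Mb before gave 50.3% and 44.7%, 79.5% and 75.9%, and 93.9% and 93.4% in the same classes, each within the interval of the distal share. The narrowest class made up 23.6% of the distal STD peaks and 19.6% of those in the 4 Mb before, and 23.4% and 20.9% of the HFD peaks.

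**Figure D4:**
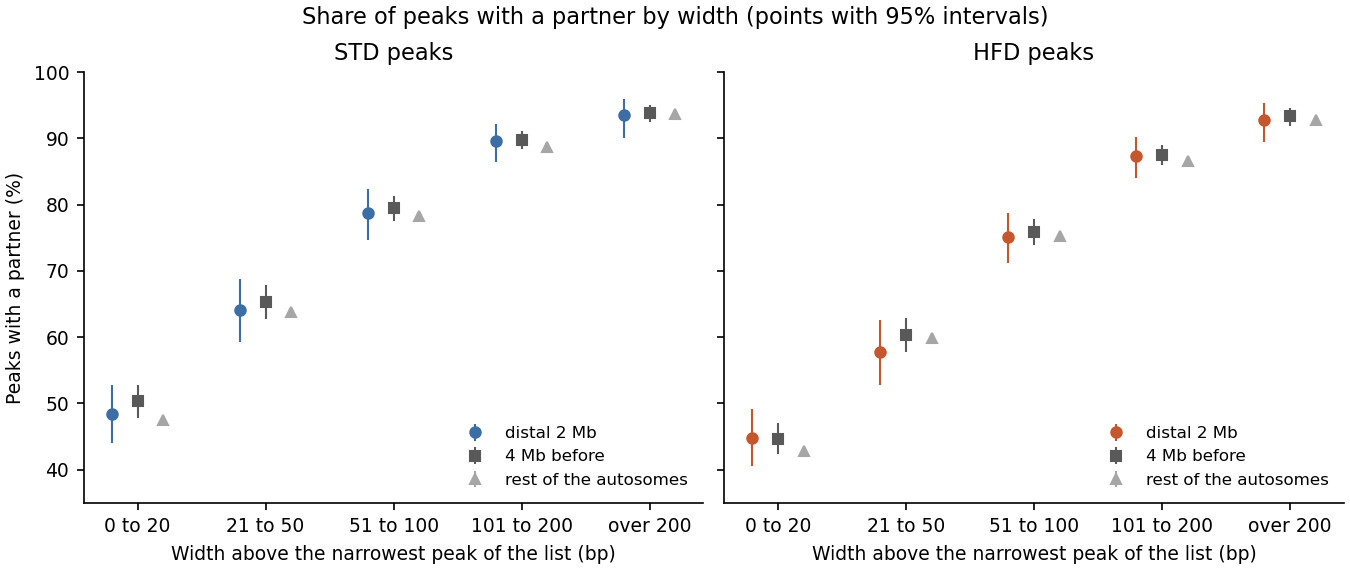
Share of STD (left) and HFD (right) peaks with a partner, in percent, by width above the narrowest peak of the same list in bp, for the distal 2 Mb, the 4 Mb before and the remaining autosomal span, with exact 95% intervals. In each class the 3 stretches lie together, from 48.4% to 93.5% for distal STD peaks and from 44.8% to 92.7% for distal HFD peaks.

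By chromosome, the distal share with a partner ran from 60.5% on chromosome 18 to 76.7% on chromosome 10 with STD, and from 56.8% on chromosome 14 to 75.9% on chromosome 11 with HFD. None of the 19 STD intervals left out the pooled distal share. Of the HFD intervals 3 did: chromosome 11, at 75.9% (70.1 to 81.1), chromosome 9, at 62.2% (53.8 to 69.997), and chromosome 12, at 57.5% (45.4 to 69.0). Those of chromosomes 9 and 11 only just left out the pooled 70.0%, which includes these chromosomes. Counting error alone would make about 1 in 20 such intervals miss, so these chromosomes are not shown to be distinct. On chromosome 9 the HFD share in the 4 Mb before was 73.6%, and on chromosome 12 it was 63.6%.

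**Figure D5:**
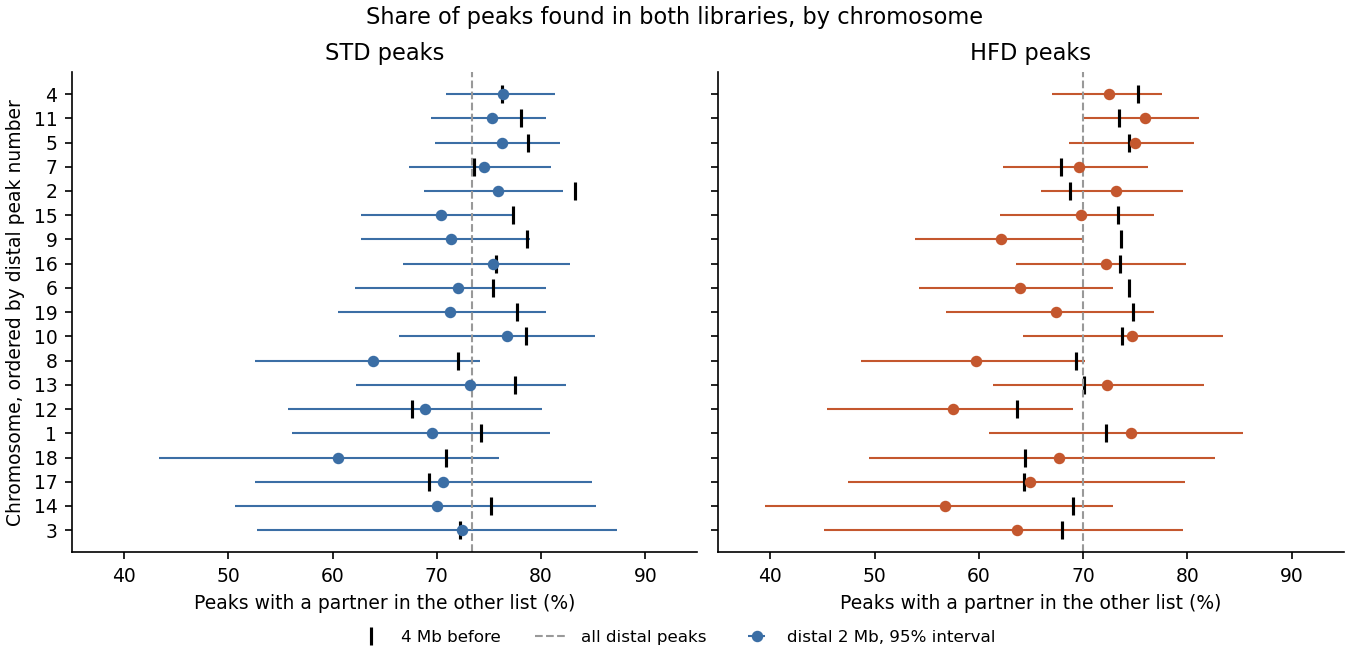
Share of STD (left) and HFD (right) peaks with a partner in the distal 2 Mb of each autosome, in percent with exact 95% intervals, beside the share in the 4 Mb before (black marks) and the pooled distal share (dashed). The intervals are wide on the sparse chromosomes at the bottom, and 3 HFD intervals (chromosomes 9, 11 and 12) leave out the dashed line, those of chromosomes 9 and 11 only just.

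The distal stretch held 1.05 times as many HFD as STD peaks (0.988 to 1.11), and all autosomes 1.06 times (1.05 to 1.06). Intervals of these HFD over STD ratios take the lists as independent. They ignore that 1589 distal peaks of each list had a partner, so an interval that includes 1 does not show equal numbers. HFD peaks were more numerous on 15 autosomes, less numerous on chromosomes 1, 11 and 18, and equal on chromosome 15. The ratio ran from 0.895 on chromosome 18 (38 STD and 34 HFD peaks) to 1.23 on chromosome 14 (30 and 37), and the interval included 1 on each of the 19. HFD peaks made up 54.1% (51.3 to 56.9) of the distal peaks without a partner, and 54.7% over all autosomes. With peaks under 300 bp left out of both lists, this ratio fell to 0.984 (0.914 to 1.06) and the HFD share without a partner 48.9% (45.6 to 52.2). With peaks up to 20 bp above the narrowest of their own list left out instead, the values were 1.05 (0.982 to 1.12) and 54.1% (51.004 to 57.2). Only the fixed limit of 300 bp turned the direction. The minima are 263 bp (STD) and 255 bp (HFD), and whether this difference accounts for the turn was not tested.

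Shared distal peaks had nearly the same place in both libraries. In 1553 distal pairs each peak had the other as its single partner, and the median distance between their midpoints was 24 bp (22.5 to 25.5), against 25 bp in the 4 Mb before. The median width of the HFD peak minus that of its STD partner was -8 bp, the same as the -8 bp between the minima of the lists (263 and 255 bp). The HFD peak was wider in 691 pairs and the STD peak in 855.

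The widest distal peaks found with 1 diet only were narrower than the widest shared ones. With STD they were on chromosome 6 from 149163764 to 149164451 (688 bp), with the nearest HFD peak 27.7 kb away, on chromosome 11 from 120472944 to 120473602 (659 bp), with one at 0.391 kb, and on chromosome 15 from 101575012 to 101575669 (658 bp), with one at 7.93 kb. With HFD the widest was on chromosome 16 from 97692409 to 97693241 (833 bp), with no STD peak within 25.1 kb. It is the 1 HFD peak of at least 800 bp without a partner. The others lay on chromosome 9 from 122641976 to 122642694 (719 bp), with an STD peak at 6.33 kb, and on chromosome 11 from 121410882 to 121411520 (639 bp), with one at 3.87 kb.

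The last peak itself differed between libraries on some chromosomes, and with it the position that defines the stretch. On 5 autosomes the lists ended more than 10 kb apart. On chromosome 15 the last HFD peak, from 103483245 to 103483529 (285 bp), lay beyond the last STD peak, from 103343351 to 103343632 (282 bp), with a distance of 139.6 kb to the nearest STD peak. On chromosome 14 the last STD peak, from 125170083 to 125170345, had the minimum width of 263 bp and was 39.5 kb from the nearest HFD peak. The outermost HFD peaks of chromosomes 6 (316 bp), 9 (279 bp) and 3 (283 bp) had no STD peak within 19.7, 16.2 and 12.8 kb. Measuring each list from its own last peak gave density ratios of 0.545 (STD) and 0.539 (HFD).

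The other end of the autosomes was slightly fuller. The first 2 Mb after the first peak held 2345 STD and 2431 HFD peaks, and the distal stretch had 0.924 (0.871 to 0.980) and 0.934 (0.881 to 0.989) times as many. The distal number was the lower one on 12 autosomes with STD and on 11 with HFD.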

How the data were processed

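For each library the authors deposited a BED file of peaks with 4 columns (chromosome, start, end, name) and no score, so only position, width and presence of peaks could be used. Per the submitters' processing notes, BWA served as aligner and mm9 as genome. Which caller and threshold gave the peaks, whether an input was sequenced and whether mice were pooled is not given in the sources used here. Deeper sequencing or stronger enrichment can add weak peaks to a list without any difference in methylation.

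The end of a chromosome was its largest peak end over both lists, so the stretch ends in a peak by construction, and its distance from the end of the assembly was not used. Numbers of peaks with a partner were checked with bedtools 2.31.1 and were the same. Python 3.11.15 was used with scipy 1.17.1, matplotlib 3.10.9, pandas 2.3.3 and numpy 2.4.6. The functions were tested on simulated lists with peaks placed in even slots. The tolerance for partner shares was wider than the distal differences of -2.86 and -2.17 percentage points, so the test does not bear on their size. No sequence is printed, as no mm9 genome was used here.

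Regions named are the 3 autosomes with the most and the 3 with the fewest distal peaks by both lists together, and those with extreme ratios. Also named are the 5 widest peaks per list, the 3 widest without a partner and the 3 longest empty stretches. So are the 3 fullest windows of 100 kb, and last peaks on chromosomes where the lists end more than 10 kb apart. The subdivision of the 4 Mb before and other chromosomes' values were chosen after the values were seen. The stretch and these rules were chosen with earlier results of these data known. Alternatives were other stretch lengths, overlap rules, width filters, merging, own ends and covered bases. Those added after seeing the data were stratification by chromosome, width matching and leaving out chromosomes 4 and 11.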

Additional observations from a re-analysis of the deposited data

Results flagged for a closer look

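Chromosomes X, Y and the mitochondrial chromosome were outside the comparisons above. Their numbers are given because each is above 3, a limit that only decides what is listed and tests nothing. Within 2 Mb of the last peak of X lay 24 STD and 30 HFD peaks, of which 18 and 17 had a partner. That is 12 and 15 peaks per Mb, against 5.5 and 4.75 in the 4 Mb before, a ratio of 2.18 (1.17 to 4.08) with STD and 3.16 (1.72 to 5.94) with HFD. The direction on X was thus the opposite of that on 18 of 19 autosomes, a difference between chromosomes that was not tested. On Y, 60 STD and 61 HFD peaks lay within 2 Mb of the last peak, out of 70 and 69 on the whole chromosome. The other 10 and 8 lay in the 4 Mb before, so the peaks of Y span 6 Mb at most and no ratio is given. The mitochondrial chromosome, which is circular and has no distal end, held 6 STD and 6 HFD peaks.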

How the results depend on the processing

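The density ratio of the distal stretch to the 4 Mb before stayed below 1 in all 22 recomputed values, from 0.474 to 0.830. It was 0.474 in both libraries for a distal 1 Mb, 0.641 (STD) and 0.647 (HFD) for 3 Mb, 0.830 and 0.823 against the whole span before, 0.513 with STD peaks of at least 300 bp, 0.516 with STD peaks over 20 bp above the narrowest, 0.498 as the HFD median over chromosomes, and 0.487 and 0.483 without chromosomes 4 and 11. Distal peaks had a partner in 70.2% (STD) and 67.0% (HFD) of cases with reciprocal 50% overlap, 75.8% and 72.0% when a peak within 500 bp counted, 67.7% for STD peaks of at least 300 bp, and 71.2% and 67.7% over 20 bp above the narrowest. The difference in that share from the stretch before reversed to 0.189 percentage points (-1.74 to 2.05) with HFD and was -0.256 with STD against the whole span before, and was -4.61 with HFD for peaks of at least 300 bp. That width filter also moved the HFD over STD ratio to 0.984 and reversed the HFD share without a partner to 48.9%. It takes out more HFD than STD peaks, and the minimum width is 255 bp with HFD and 263 bp with STD. Whether the lower minimum accounts for this was not tested. Median spacing was 9.51 kb (STD) and 9.49 kb (HFD) in 1 Mb, 6.73 and 6.48 kb in 3 Mb, 11.4 and 11.3 kb for peaks of at least 300 bp, and 9.78 and 9.59 kb over 20 bp above the narrowest, where fewer peaks are left. Median STD width in 3 Mb was 337 bp. The other 54 of 86 values lay within the interval of the value as reported, which does not make them equal to it. Among them were the differences in partner share at the distal widths. These were -0.929 (STD) and -0.738 (HFD) percentage points, against -2.86 and -2.17 as reported. No paired analysis was possible because there is 1 library for each diet, so leaving out a replicate could not be tried. Without depth, the absence of a peak cannot be read as absence of signal.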

Other observations

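Neighbouring distal peaks without a partner came from the same library less often than from different ones. Of 213 such neighbours 0.5 to 4.5 kb apart, 85 (39.9%, 33.3 to 46.8) came from the same library, against 38.7% of 952 in the 4 Mb before and 42.5% of 16936 over the remaining autosomal span. With 1 library per diet this cannot be assigned to diet.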
